A study of Homo sapiens with 15 samples.

Results

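Oxidative phosphorylation (OXPHOS) needs proteins from both genomes of the cell, and its mRNAs were followed here in KPL4, a human breast adenocarcinoma line with amplified HER2. The set held 104 of the 60664 genes in the count table, of which 13 lie on the mitochondrial genome and 91 in the nucleus. Members were protein-coding genes whose symbol starts with MT-, with NDUFA, NDUFB, NDUFC, NDUFS or NDUFV, with UQCR, with COX4 to COX8 or with ATP5, together with CYC1 and the SDHA to SDHD genes. NDUFAF assembly factors and pseudogenes were left out. Complex I had 7 mitochondrial and 38 nuclear members, complex II had 4 nuclear members, complex III had 1 and 10, complex IV had 3 and 19, and complex V had 2 and 20.

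The 15 libraries, from total RNA after removal of ribosomal RNA, formed 5 groups of 3. Add-back cells were ERβ-KO cells carrying exogenous ERβ, the receptor encoded by ESR2, and 2 groups were made from them. One received LY500307, an ERβ agonist, at 200 nM for 24 h and the other DMSO vehicle, each after 72 h in 1% charcoal-treated serum without phenol red. The add-back, ERβ-KO (knockout) and control cells, the last with endogenous ERβ, were grown in Ham's F12 with 7% serum, insulin and hydrocortisone. Every group other than control thus shares the knockout background, and the sources used here do not give the promoter of the exogenous receptor or whether a line was 1 clone. Totals ran from 12614074 to 19390378 expected counts per library. ESR2 was at 5.77, 3.04 and 4.41 CPM (counts scaled to library size with TMM factors) in knockout libraries, against 6.44, 4.79 and 6.07 CPM in control libraries, which overlapped (log2 fold change -0.38 ± 0.17, adjusted p = 0.0796), so its mRNA did not check the knockout label. Add-back libraries had 34.1, 33.8 and 30.6 CPM. All 7 breast epithelial markers were present, with a summed level of 6757 to 10800 CPM over the libraries. Of 11 markers of other cell types MYH7 was at 0 in every library and 4 exceeded 1 CPM in some library, MB (18.8 to 33.5 CPM), CD68, VWF and COL1A1. Their sum was 33.6 to 38.6 CPM in knockout libraries and 24.5 to 27.0 CPM in control libraries, and its part in the results was not tested.

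Complexes I, III and IV pass electrons to oxygen and pump protons, complex II feeds electrons from succinate, and complex V is the ATP synthase. The mitochondrial genome encodes only core membrane subunits, and all other subunits are encoded in the nucleus and imported. Mitochondrial mRNAs are cut from long transcripts that cover a whole strand, mostly at the tRNAs between them, so their relative amounts depend on processing and stability after transcription. MT-ND6 is transcribed from the strand opposite to that of the other 12.

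The mitochondrial mRNAs lie so close that some share bases, which limits how reads can be divided between them. The coding regions of MT-ATP8 and MT-ATP6, both subunits of the ATP synthase membrane part, overlap by 46 bases on one bicistronic message. The overlap is shown because the values of these 2 genes rest in part on the same bases, with the start codon of MT-ATP6 and the stop codon of MT-ATP8 in capitals.
MT-ATP8 and MT-ATP6 overlap, GENCODE 29 transcripts, GRCh38 chrMT:8527-8572, plus strand: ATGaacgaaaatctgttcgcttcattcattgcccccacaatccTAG
MT-ND4L and MT-ND4 overlap by 7 bases and MT-ATP6 and MT-CO3 by 1 base. Reads can also be split with nuclear pseudogene copies, of which MTND2P28 averaged 611 CPM, MTATP6P1 averaged 319 CPM and MTCO1P12 averaged 13.7 CPM over the 15 libraries. Adding the counts of all 404 such copies to their mitochondrial gene left the calls of the 13 genes as they were in each comparison, an alternative chosen after seeing the data.

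Per transcript length, the 13 mitochondrial mRNAs stood above every nuclear member. On the TPM scale, which divides counts by transcript length (mean of all 15 libraries), they averaged between 1564 TPM (MT-ND6) and 8692 TPM (MT-CO3), while the highest nuclear members were ATP5F1B, the catalytic β subunit of the ATP synthase, at 501 TPM, NDUFV2, an iron-sulfur subunit of complex I, at 418 TPM and COX7C, a small complex IV subunit, at 367 TPM. All 13 mitochondrial and 84 of 91 nuclear members passed the filter on low counts. The other 7 were COX4I2, COX6A2 and COX7B2 at 0 counts over all libraries, COX7A1 at 2, COX8C at 9, ATP5MGL at 30 and COX6B2 at 39 counts. Most of these are the muscle, lung or testis forms of complex IV subunits, and the widely expressed forms carried the expression: COX4I1 and COX6A1 had 100% of the per-length level of their pair in every library. NDUFA4L2, a hypoxia-inducible relative of the complex IV subunit NDUFA4, was 2.82% of the pair's level in knockout libraries and 0.832% in control libraries.

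Knockout libraries had less mitochondrial mRNA than control libraries, while the nuclear members changed in both directions. The 13 mitochondrial mRNAs summed to 34750, 26880 and 35700 CPM in knockout libraries, against 43300, 42160 and 41250 CPM in control libraries. Nuclear members summed to 5399, 5443 and 5443 CPM in knockout libraries and 5874, 5644 and 5601 CPM in control libraries. On this scale both sums were lower in every knockout library than in any control library. For the nuclear members this did not hold on other scales: their TPM sums were 9351, 9630 and 9284 TPM in knockout libraries and 9414, 9256 and 9323 TPM in control libraries, and their share of all counts was 0.559, 0.567 and 0.559% in knockout libraries and 0.568, 0.56 and 0.556% in control libraries, both with overlap. The mitochondrial TPM sums, 60030, 46890 and 61710 TPM in knockout libraries and 69890, 69320 and 69060 TPM in control libraries, did not overlap. The ratio of mitochondrial to nuclear OXPHOS mRNA was 6.44, 4.94 and 6.56 in knockout libraries, against 7.37, 7.47 and 7.37 in control libraries. Knockout replicate 2, also the shallowest library of the series, held the lowest mitochondrial sum and ratio of all 15 libraries. In bulk RNA, fewer mitochondria-rich cells and less mitochondrial mRNA per cell cannot be told apart.

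**Figure D1:**
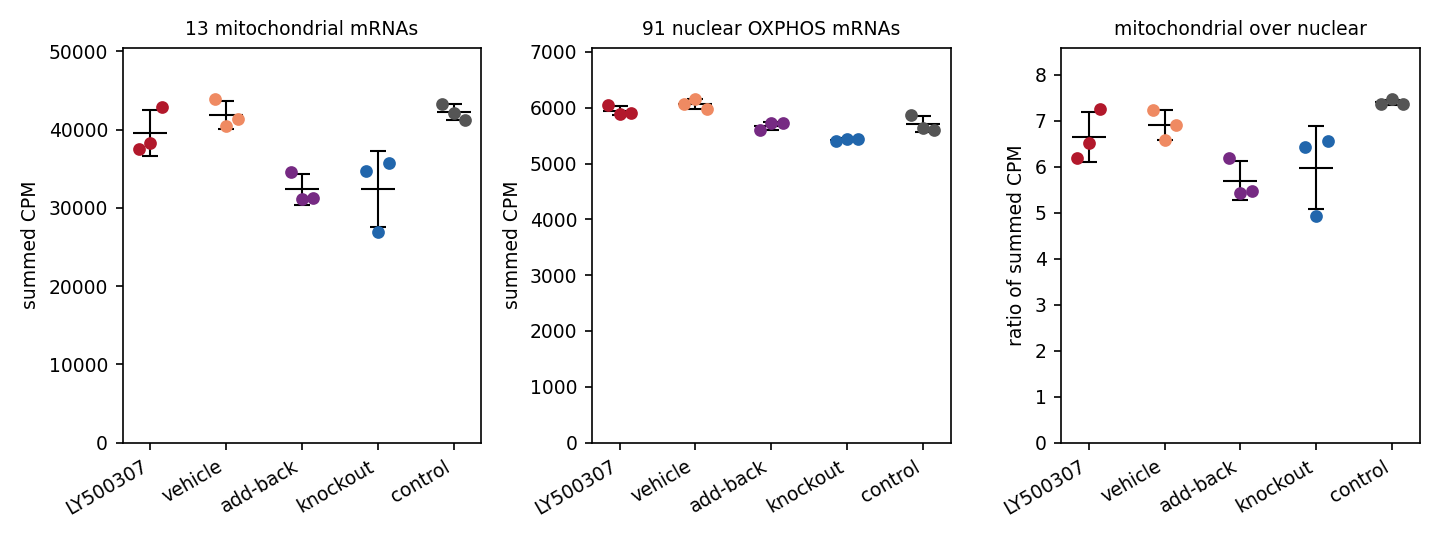
Summed level of the 13 mitochondrial mRNAs (left, CPM), of the 91 nuclear OXPHOS mRNAs (middle, CPM) and their ratio (right) in each library of the 5 groups; points are libraries, bars the mean ± SD (n = 3). Control libraries sit between 41250 and 43300 CPM for the mitochondrial mRNAs, and knockout replicate 2 is the lowest point at 26880 CPM.

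In edgeR's quasi-likelihood test, knockout against control called 11 of 13 mitochondrial mRNAs lower and 0 higher (13 of 13 had an unadjusted p under 0.05, and DESeq2 called 8, all lower), with a median log2 fold change of -0.37. Over all 19516 genes tested, 46.0% were called, 23.4% higher and 22.6% lower, and the median was 0.00. MT-CO2, a catalytic core subunit of complex IV, had the lowest log2 fold change of the 13. MT-CO2 (ENSG00000198712, GRCh38 chrMT:7586-8269, plus strand) had 1641, 1171 and 1757 CPM in knockout libraries, against 2630, 2542 and 2514 CPM in control libraries (log2 fold change -0.75 ± 0.10 (SE), adjusted p = 3.81e-06). MT-CO1, the subunit that holds the oxygen-reducing site, had 6169, 5809 and 6098 CPM in knockout libraries, against 8622, 8093 and 7950 CPM in control libraries (log2 fold change -0.45 ± 0.03 (SE), adjusted p = 3.50e-10). Neither gene overlapped between the groups. MT-CYB, the complex III core, changed by -0.44, MT-ND4L by -0.52, MT-ND4 by -0.42, MT-ND1 by -0.42 and MT-ATP6 by -0.37 on the log2 scale, and MT-CO3, MT-ND2, MT-ND3 and MT-ND5 fell by between 0.25 and 0.30, where the GC and length offsets turned MT-ND3 to 0.064. MT-ND6 and MT-ATP8 were not called, at log2 fold changes of -0.24 and -0.27. Without knockout replicate 2, 8 of the 13 were lower with a median of -0.22, and MT-ND2, MT-ND3 and MT-ND5 were no longer called. With offsets that remove each library's trend on GC content and length, 7 were lower with a median of -0.20.

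Shares within the mitochondrial pool differed for some mRNAs. MT-CO2 made up 4.72, 4.36 and 4.92% of the 13 mRNAs in knockout libraries, against 6.07, 6.03 and 6.09% in control libraries. MT-ND2, a membrane subunit of complex I, made up 20.3, 18.4 and 19.8% in knockout libraries, against 17.5, 17.9 and 18.2% in control libraries. Neither pair of groups overlapped. Of the 13 shares, 5 did not overlap between knockout and control libraries, 2 higher and 3 lower, and the other 8 overlapped. The 13 shares add up to the whole pool, so they do not move independently. They were not tested, and no figure over all genes stands beside this count. MT-ND6, from the opposite strand, was 1.88, 1.8 and 1.98% of the sum of the other 12 in knockout libraries and 1.68, 1.79 and 1.68% in control libraries. The use of strand in counting is not given, so reads from the other strand cannot be told apart in MT-ND6 values. This limit holds for each comparison below too.

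Of the 84 nuclear members, 16 were higher and 24 lower in knockout libraries, with a median log2 fold change of -0.03, so 47.6% were called beside 46.0% of all genes. Complex V had 4 higher and 9 lower of 19, complex I 9 higher and 7 lower of 38, complex IV 2 and 4 of 13, complex III 1 and 2 of 10, and complex II 0 and 2 of 4. With the GC and length offsets, the split turned to 23 higher and 16 lower.

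**Figure D2:**
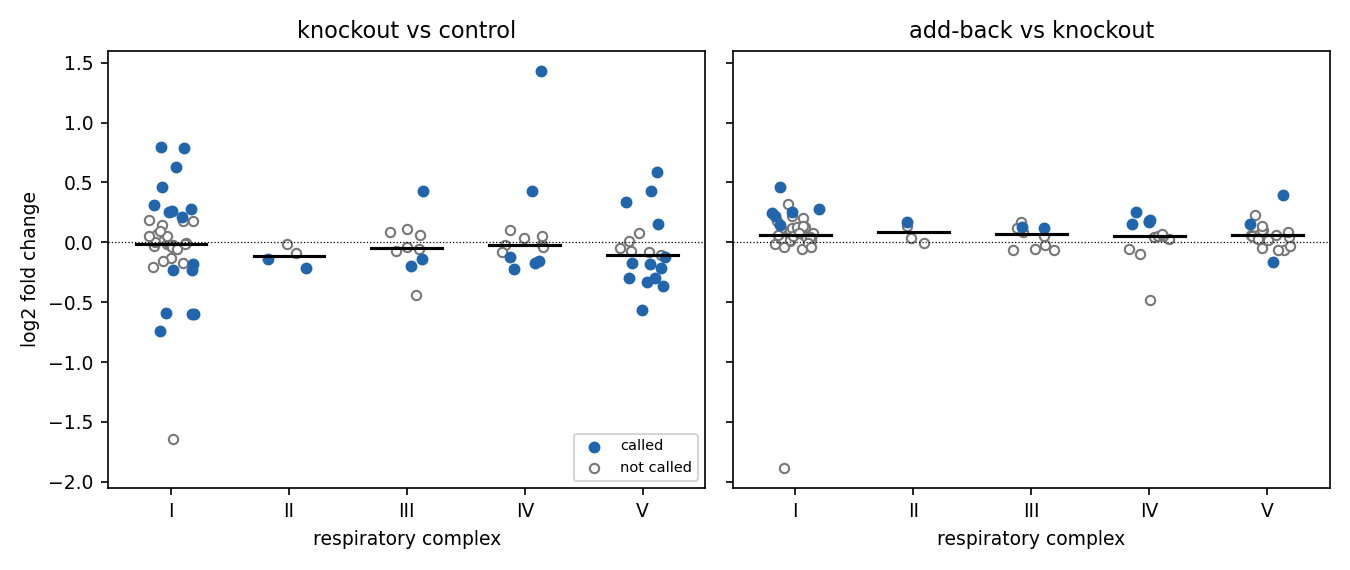
Log2 fold change of the 84 tested nuclear members by respiratory complex, for knockout against control (left) and add-back against knockout (right); filled points were called, open points were not, and lines are medians. Complex I spreads both ways on the left, and 16 of the 17 called members on the right lie above 0.

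Among the members with the lowest log2 fold changes in knockout libraries were NDUFS1, NDUFB3, NDUFA10 and NDUFB9 of complex I, which makes up 38 of the 84 tested members. NDUFS1, the largest complex I subunit and a carrier of its iron-sulfur clusters (ENSG00000023228, GRCh38 chr2:206114817-206159603, minus strand), had 122, 118 and 119 CPM in knockout libraries, against 204, 196 and 199 CPM in control libraries (log2 fold change -0.74 ± 0.04 (SE), adjusted p = 4.68e-12). NDUFB3, an accessory membrane-arm subunit, had 28.1, 32.2 and 27.6 CPM in knockout libraries, against 48, 40.5 and 43.8 CPM in control libraries (log2 fold change -0.59 ± 0.07 (SE), adjusted p = 9.62e-07). NDUFA10, another accessory subunit, had 88.6, 89.7 and 84.8 CPM in knockout libraries, against 127, 138 and 134 CPM in control libraries (log2 fold change -0.60 ± 0.04 (SE), adjusted p = 3.41e-10). These 3 genes lie on chromosome 2, and most of their tested neighbours within 5 Mb were lower too: 37 of 55 around NDUFS1 with a median log2 fold change of -0.49, 43 of 64 around NDUFB3 with -0.54 and 34 of 62 around NDUFA10 with -0.40. The chromosome 2 members COX5B and ATP5MC3 were not called, at log2 fold changes of 0.10 and 0.08. NDUFB9, an accessory subunit on chromosome 8, changed by -0.60 on the log2 scale (adjusted p = 1.23e-08) among neighbours with a median of -0.21, 20 of 55 of them lower. The part that the neighbourhood has in these values was not tested.

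Among complex V members, ATP5MC1 was lower while its 2 sister genes were not called. ATP5MC1, ATP5MC2 and ATP5MC3 encode the same mature subunit c, the ring that turns in the membrane, behind different import signals. ATP5MC1 (ENSG00000159199, GRCh38 chr17:48892765-48895871, plus strand) had 45.7, 43.5 and 41 CPM in knockout libraries, against 63.8, 65.4 and 63.4 CPM in control libraries (log2 fold change -0.57 ± 0.05 (SE), adjusted p = 1.66e-08), and its neighbours had a median of -0.04. The log2 fold changes of ATP5MC2 and ATP5MC3 were -0.10 and 0.08. Per length, ATP5MC1 gave 24.5, 23.9 and 23.2% of subunit c mRNA in knockout libraries, against 31.9, 32.1 and 32% in control libraries. ATP5MG, subunit g, also fell (-0.36), while ATP5IF1, the inhibitor that stops the synthase from running backwards, had 58.9, 53.2 and 55.4 CPM in knockout libraries, against 42.7, 44.1 and 46 CPM in control libraries (log2 fold change 0.33 ± 0.05 (SE), adjusted p = 4.61e-05).

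**Figure D3:**
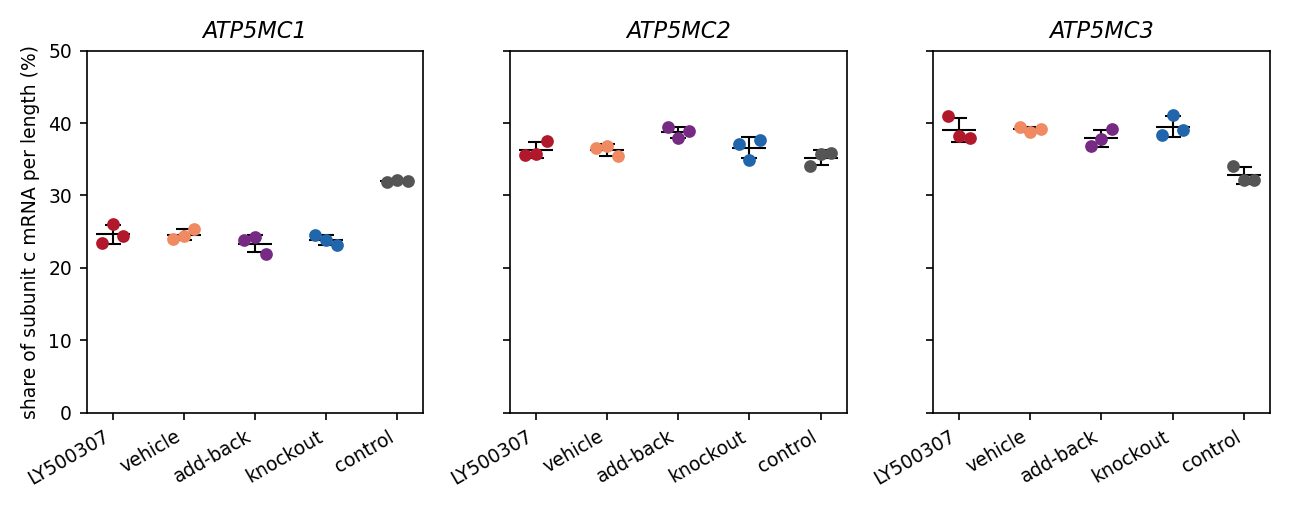
Share of ATP synthase subunit c mRNA per transcript length (%) from each of its 3 genes, by library; points are libraries, bars the mean ± SD (n = 3). ATP5MC1 averages 32.0% in control libraries and between 23.4% and 24.6% in the other 4 groups.

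The members with the highest log2 fold changes in knockout libraries were rich in G and C. Apart from NDUFA4L2, which stayed near 1 CPM (1.07, 0.913 and 1.23 CPM in knockout libraries, against 0.227, 0.357 and 0.569 CPM in control libraries; log2 fold change 1.43 ± 0.36 (SE), adjusted p = 0.00285), they were NDUFB7 (0.80), NDUFS7 (0.78), NDUFS8 (0.63), ATP5F1D (0.59) and NDUFA13 (0.46). NDUFS7 and NDUFS8 hold iron-sulfur clusters at the end of the electron path in complex I, NDUFB7 and NDUFA13 are accessory subunits, and ATP5F1D is the δ subunit of the synthase. Their neighbours within 5 Mb were more often higher than lower too, 110 of 181 around NDUFS7 with a median log2 fold change of 0.39, 108 of 177 around ATP5F1D with 0.39, 100 of 224 around NDUFS8 with 0.20, 96 of 279 around NDUFB7 with 0.17 and 59 of 193 around NDUFA13 with 0.10. NDUFS8 had 42.2, 52.8 and 58.2 CPM in knockout libraries, against 30.6, 38.6 and 30.3 CPM in control libraries (log2 fold change 0.63 ± 0.10 (SE), adjusted p = 5.68e-05). Of the 21 nuclear members with at least 54.0% GC in the mRNA, 12 were higher and 2 lower (median log2 fold change 0.28), while of the other 63 only 4 were higher and 22 lower (median -0.07). Across the 84 members, Spearman's rho of log2 fold change with GC content was 0.38, and over 19089 genes with a value it was 0.38, where genes share libraries and are not independent. Under the GC and length offsets the log2 fold change of ATP5F1D was -0.23 and that of NDUFV1 -0.06, although they were higher without the offsets (0.59 and 0.28).

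Other core subunits changed little. SDHA, the flavoprotein of complex II, UQCRC1, a core protein of complex III, COX5B of complex IV and ATP5F1B were not called, with log2 fold changes between -0.04 and 0.10. NDUFA4 (-0.17), ATP5F1A (-0.17), SDHB (-0.14), COX4I1 (-0.12) and CYC1, the cytochrome c1 of complex III (-0.20), were lower, and NDUFV1, which accepts electrons from NADH, was higher. COX6A1, COX7A2 and COX7A2L were not called.

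Promoter windows are shown for 4 named genes, picked because they hold a match, since OXPHOS promoters are known to carry sites for the factors NRF1, GABP (an ETS factor), YY1 and ERR. RefSeq windows from 250 bases before to 50 after the start were searched on both strands for GCGCATGCG (NRF1), CCGGAAG (GABP or other ETS factor), AAGATGGCG (YY1) and TCAAGGTCA (ERR), of which CCGGAAG and AAGATGGCG can share the letters AAG. Of the 91 nuclear members 71 had at least 1 window, 84 in all. Counted by gene, NRF1 letters were in 15.5% of the 71 members and 3.86% of 11120 tested coding genes, ETS letters in 29.6% and 21.2%, YY1 letters in 12.7% and 4.31%, and ERR letters in 1.41% and 0.27%. Over single windows, which include genes that were not tested, the shares were 13.1% of member windows and 1.92% of all 35116 windows for NRF1, 26.2% and 10.3% for ETS, 11.9% and 1.75% for YY1, and 1.19% and 0.353% for ERR. Any of the 4 was found in 34 of the 71 members, and the windows of NDUFS8, NDUFV1, ATP5MC1, NDUFA10 and NDUFB3 and the other window of NDUFS1 held none. Capitals mark the matches below. A match describes letters and is no evidence of binding.
NDUFS7 promoter window, GRCh38.p14 chr19:1383657-1383956, plus strand: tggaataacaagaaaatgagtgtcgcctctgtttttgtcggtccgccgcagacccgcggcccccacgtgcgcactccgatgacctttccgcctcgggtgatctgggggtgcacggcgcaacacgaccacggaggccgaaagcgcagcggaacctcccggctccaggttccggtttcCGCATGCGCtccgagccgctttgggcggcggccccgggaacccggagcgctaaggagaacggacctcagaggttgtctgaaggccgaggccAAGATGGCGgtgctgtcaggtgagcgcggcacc
NDUFB7 promoter window, GRCh38.p14 chr19:14572017-14572316, minus strand: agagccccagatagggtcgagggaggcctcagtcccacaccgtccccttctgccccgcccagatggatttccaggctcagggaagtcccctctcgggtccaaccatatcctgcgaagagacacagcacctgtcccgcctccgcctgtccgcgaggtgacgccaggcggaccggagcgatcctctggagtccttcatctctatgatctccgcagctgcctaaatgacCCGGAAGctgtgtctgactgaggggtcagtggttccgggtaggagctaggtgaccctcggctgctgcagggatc
COX6A1 promoter window, GRCh38.p14 chr12:120437863-120438162, plus strand: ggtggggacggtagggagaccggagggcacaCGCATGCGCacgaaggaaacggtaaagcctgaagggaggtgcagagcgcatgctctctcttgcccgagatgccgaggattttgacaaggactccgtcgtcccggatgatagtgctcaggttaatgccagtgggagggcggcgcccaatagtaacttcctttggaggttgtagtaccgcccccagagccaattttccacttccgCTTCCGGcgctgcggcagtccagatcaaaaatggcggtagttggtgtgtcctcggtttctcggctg
NDUFS1 promoter window, GRCh38.p14 chr2:206159395-206159694, minus strand: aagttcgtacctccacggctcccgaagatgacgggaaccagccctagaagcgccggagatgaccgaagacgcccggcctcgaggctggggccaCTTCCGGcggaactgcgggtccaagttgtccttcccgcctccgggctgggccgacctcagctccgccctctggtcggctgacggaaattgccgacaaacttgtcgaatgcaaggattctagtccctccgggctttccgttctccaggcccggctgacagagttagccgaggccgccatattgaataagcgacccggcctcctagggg
NDUFS7 held NRF1 and YY1 letters, COX6A1 held NRF1 and ETS letters, and NDUFB7 and NDUFS1 held ETS letters although one rose and the other fell in knockout libraries.

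Add-back libraries differed from knockout libraries in few mitochondrial mRNAs, and most nuclear members that were called were higher. Mitochondrial mRNAs summed to 34620, 31090 and 31300 CPM in add-back libraries, inside the range of the knockout libraries, and the ratio to nuclear members was 6.19, 5.44 and 5.47. Nuclear members summed to 5595, 5720 and 5723 CPM in add-back libraries, above every knockout library. Add-back against knockout called 1 mitochondrial mRNA higher and 2 lower, beside 19.6% of all genes called, 10.4% higher and 9.19% lower. MT-CO1 had 6679, 6542 and 6372 CPM in add-back libraries, against 6169, 5809 and 6098 CPM in knockout libraries (log2 fold change 0.12 ± 0.03 (SE), adjusted p = 0.00825). MT-ND5, a proton-pumping subunit of complex I, had 2606, 2113 and 2146 CPM in add-back libraries, against 3055, 2267 and 3096 CPM in knockout libraries (log2 fold change -0.29 ± 0.10 (SE), adjusted p = 0.0402), and the groups overlapped. MT-ND6 had 544, 442 and 478 CPM in add-back libraries, against 642, 476 and 694 CPM in knockout libraries (log2 fold change -0.31 ± 0.10 (SE), adjusted p = 0.0347), and overlapped too. The count rested on single libraries: without knockout replicate 2 it was 1 higher and 4 lower with a median of -0.09, against 0.03 with it, and without add-back replicate 2 or add-back replicate 3 only MT-CO1 was called.

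Of the nuclear members 16 were higher and 1 lower in add-back libraries, 20.2% in all beside 19.6% of all genes, with a median log2 fold change of 0.06 against -0.01 over all genes. The higher ones were 6 of complex I, 5 of complex IV, 2 of complex III, 2 of complex V and 1 of complex II. NDUFA5, an accessory subunit of the complex I arm that meets NADH, had 34.8, 35.7 and 34.5 CPM in add-back libraries, against 26.4, 26.2 and 24 CPM in knockout libraries (log2 fold change 0.46 ± 0.06 (SE), adjusted p = 2.35e-05). ATP5MF, subunit f of the synthase, had 58.4, 61.6 and 62.1 CPM in add-back libraries, against 44.9, 46.6 and 46.9 CPM in knockout libraries (log2 fold change 0.40 ± 0.06 (SE), adjusted p = 5.70e-05). Neither overlapped, and ATP5MF can share reads with the read-through gene ATP5MF-PTCD1. COX7A2 (0.26), NDUFC1 (0.28), NDUFB3 (0.25), NDUFA7 (0.24), NDUFS1 (0.22), COX6A1 (0.18), SDHB (0.17), ATP5IF1 (0.15), COX7A2L (0.15) and UQCRC1 (0.13) were also higher on the log2 scale. COX7A2L helps join complexes III and IV. The member called lower was ATP5MJ, a small accessory subunit of the synthase, at -0.17. Neighbours within 5 Mb moved the same way for NDUFA5, ATP5MF and ATP5MJ. Around NDUFA5 13 of 35 were higher and 0 lower (median log2 fold change 0.25). Around ATP5MF 45 of 136 were higher and 3 lower (0.19), and around ATP5MJ 2 of 89 higher and 31 lower (-0.19). For other called members the neighbours moved less: 1 of 30 was higher and 3 lower around NDUFC1 (0.02). Around ATP5IF1 11 of 160 were higher and 7 lower (0.02), and the medians around COX6A1 and SDHB were 0.01. The part of the neighbourhood in these calls was not tested. The count fell to 9 higher and 2 lower under upper-quartile scaling, to 10 higher and 1 lower with the GC and length offsets, and to 11 higher without add-back replicate 2.

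Set against control cells directly, add-back cells had less mitochondrial mRNA. Add-back libraries had 12 of 13 mitochondrial mRNAs lower (median -0.37) than control libraries, with MT-ND3 (-0.19) not called, and 29 nuclear members higher and 14 lower (median 0.03), beside 45.8% of all genes called, 23.2% higher and 22.7% lower. This comparison shares its control libraries with knockout against control and its add-back libraries with add-back against knockout. NDUFS1 was at 134, 142 and 140.1 CPM and ATP5MC1 at 41.1, 43.3 and 39.6 CPM in add-back libraries, both below every control library (log2 fold changes -0.52 and -0.63). ATP5IF1 (0.49), NDUFB7 (1.12) and UQCR11, a small complex III subunit (0.60), were higher in add-back libraries. Of the 21 GC-rich members 13 were higher and 1 lower (median 0.33), and of the other 63 there were 16 higher and 13 lower (median -0.03). Of neighbours within 5 Mb, 115 of 188 were higher around UQCR11 (median 0.39), 103 of 279 around NDUFB7 (0.16) and 39 of 160 around ATP5IF1 (0.04). The part of GC content or neighbourhood was not tested. The ATP5MC1 share of subunit c mRNA was 23.8, 24.3 and 22% in add-back libraries.

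In steroid-depleted medium the mitochondrial mRNAs of add-back cells moved apart from each other. Medium, serum and DMSO change together between vehicle and add-back libraries and cannot be told apart. ESR2 differed as well, with 41.7, 45.9 and 48.0 CPM in vehicle libraries, above every add-back library (log2 fold change 0.46 ± 0.08 (SE), adjusted p = 0.000117). Mitochondrial mRNAs summed to 43870, 40480 and 41330 CPM in vehicle libraries, above every add-back library, and nuclear members to 6061, 6153 and 5974 CPM, also above every add-back library on this scale and in TPM, although their share of all counts overlapped. Vehicle libraries had 7 of 13 mitochondrial mRNAs higher and 2 lower (median 0.30; 6 higher and 4 lower with the GC and length offsets), beside 48.1% of all genes called, 26.4% higher and 21.6% lower. MT-CO2 had 3073, 2759 and 2905 CPM in vehicle libraries, against 1907, 1673 and 1717 CPM in add-back libraries (log2 fold change 0.72 ± 0.10 (SE), adjusted p = 5.36e-06). MT-ND4, a proton-pumping subunit, had 6429, 5792 and 6036 CPM in vehicle libraries, against 4001, 3548 and 3644 CPM in add-back libraries (log2 fold change 0.71 ± 0.10 (SE), adjusted p = 7.14e-06). MT-ND2 had 4736, 4296 and 4492 CPM in vehicle libraries, against 6212, 5258 and 5390 CPM in add-back libraries (log2 fold change -0.32 ± 0.10 (SE), adjusted p = 0.0101). MT-ND2 thus fell while MT-CO1, its next mRNA along the same strand, rose (0.60), with no overlap for either. MT-ND4L (0.94), MT-CO3 (0.55), MT-CYB (0.48) and MT-ND1 (0.30) were higher, MT-ND6 (-0.28) was lower, and MT-ND5 (-0.22), MT-ATP8 (-0.21), MT-ATP6 (0.19) and MT-ND3 (0.11) were not called.

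**Figure D4:**
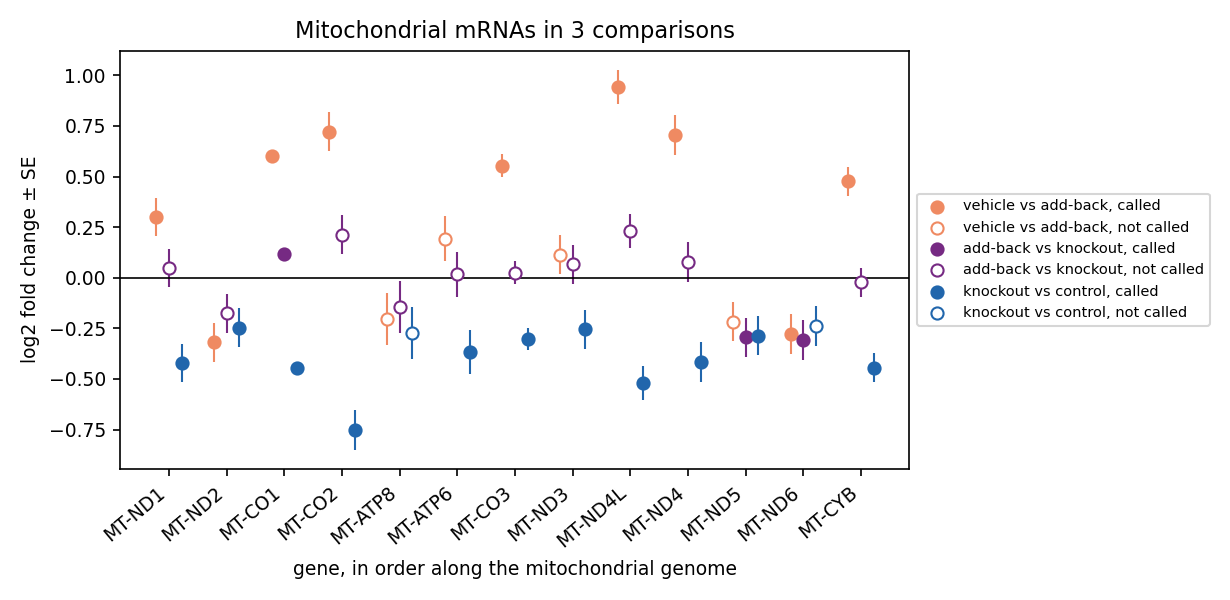
Log2 fold change ± SE (3 libraries a group) of the 13 mitochondrial mRNAs, in their order along the mitochondrial genome, for vehicle against add-back, add-back against knockout and knockout against control; filled points were called. Vehicle values range between -0.32 (MT-ND2) and 0.94 (MT-ND4L), and every knockout value lies below 0.

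The share of each mRNA in the mitochondrial pool did not overlap between vehicle and add-back libraries for any of the 13, with 6 higher and 7 lower. The shares of a library add up to the whole pool, so higher shares of some mRNAs mean lower shares of others. They were not tested, and no figure over all genes stands beside this count. MT-ND2 was 10.8, 10.6 and 10.9% of the pool in vehicle libraries, against 17.9, 16.9 and 17.2% in add-back libraries. MT-CO1 was 23.3, 24.5 and 23.2% in vehicle libraries, against 19.3, 21 and 20.4% in add-back libraries. MT-ND6 was 0.974, 0.955 and 0.977% of the sum of the other 12 in vehicle libraries, against 1.6, 1.44 and 1.55% in add-back libraries.

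Nuclear members differed between vehicle and add-back libraries too. Of the 84, 37 were higher and 18 lower in vehicle libraries (65.5% called, beside 48.1% of all genes, median 0.09). Complex V had 12 higher and 3 lower of 19, complex IV 8 and 1 of 13, complex III 3 and 2 of 10, complex II 2 and 1 of 4, and complex I 12 and 11 of 38. SDHC, a membrane anchor of complex II (0.41), NDUFA1 (0.47), ATP5MG (0.44), NDUFA4 (0.42) and COX7A2 (0.39) led the rises. NDUFC2-KCTD14, a read-through gene that can share reads with NDUFC2, was called at 3.88 and its value is uncertain. NDUFS7 had 4.96, 3.2 and 4.63 CPM in vehicle libraries, against 11.7, 12.4 and 11.1 CPM in add-back libraries (log2 fold change -1.48 ± 0.17 (SE), adjusted p = 5.49e-07). NDUFB7 (-1.37), NDUFS8 (-1.11), ATP5F1D (-1.05), NDUFA4L2 (-0.89, adjusted p = 0.0497) and UQCR11 (-0.53) were also lower. Of neighbours within 5 Mb, 117 of 181 were lower and 9 higher around NDUFS7 (median -0.58). Around ATP5F1D 114 of 177 were lower and 9 higher (-0.58), and around UQCR11 120 of 188 and 9 (-0.58). Around NDUFB7 135 of 279 were lower and 32 higher (-0.27), and around NDUFS8 100 of 224 and 24 (-0.25). Of the 21 GC-rich members 3 were higher and 15 lower (median -0.28), and of the other 63 there were 34 higher and 3 lower (median 0.13). Spearman's rho of log2 fold change with GC content was -0.62 across the 84 members and -0.40 over 19089 genes. The part of GC content or neighbourhood in these values was not tested. With the GC and length offsets 25 were higher and 13 lower.

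No mitochondrial mRNA was called with LY500307. In edgeR 0 of 13 were called, with 1 at an unadjusted p under 0.05 and 0 called by DESeq2, beside 7.12% of all genes called, 4.77% higher and 2.35% lower. The median log2 fold change was -0.08, and MT-CO2 had 2611, 2616 and 3073 CPM in LY500307 libraries, against 3073, 2759 and 2905 CPM in vehicle libraries (log2 fold change -0.07 ± 0.10 (SE), adjusted p = 0.732). Mitochondrial mRNAs summed to 37450, 38340 and 42880 CPM in LY500307 libraries, overlapping the vehicle libraries. MT-ND6 was 1.03, 1.11 and 1.09% of the sum of the other 12 in LY500307 libraries, against 0.974, 0.955 and 0.977% in vehicle libraries, without overlap but with no test.

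Of the nuclear members 5 were higher and 1 lower with LY500307, 7.14% of 84 beside 7.12% of all genes. NDUFS7 had 6.85, 6.89 and 7.16 CPM in LY500307 libraries, against 4.96, 3.2 and 4.63 CPM in vehicle libraries (log2 fold change 0.73 ± 0.18 (SE), adjusted p = 0.0189). NDUFV1 had 67.8, 69.7 and 65.1 CPM in LY500307 libraries, against 51.5, 55.1 and 55.8 CPM in vehicle libraries (log2 fold change 0.32 ± 0.05 (SE), adjusted p = 0.00223). ATP5F1D (0.60) and NDUFB7 (0.54) were higher and NDUFA5 (-0.19) was lower, none with overlap, and NDUFA13 (0.23) was higher with groups that overlapped. Of their neighbours within 5 Mb, 54 of 181 were higher around NDUFS7 (median log2 fold change 0.23) and 46 of 279 around NDUFB7 (0.11). All 5 higher members were among the 21 GC-rich ones, Spearman's rho of log2 fold change with GC content was 0.72 across the 84 members and 0.46 over 19089 genes, and with the GC and length offsets 0 of the 84 members and 262 of the 19516 genes were called. The count was 2 without LY500307 replicate 1 or LY500307 replicate 2, 3 without vehicle replicate 1 and 1 without vehicle replicate 2.

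**Figure D5:**
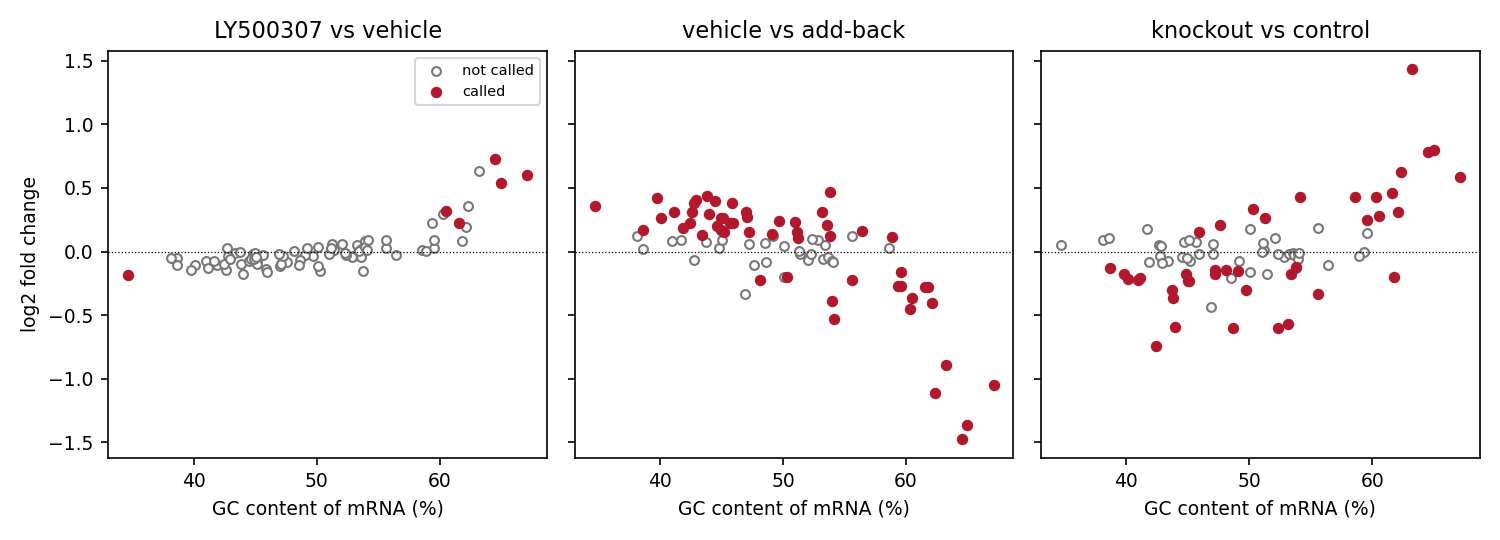
Log2 fold change against GC content of the mRNA (%) for the tested nuclear members (NDUFC2-KCTD14, a read-through gene, is not drawn) in LY500307 against vehicle, vehicle against add-back and knockout against control; filled points were called. The most GC-rich members, such as NDUFS7, NDUFB7 and ATP5F1D, lie above 0 on the left and below 0 in the middle panel.

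Factors that serve the mitochondrial genome were counted next. Of 22 genes for mitochondrial RNA handling 3 were higher and 13 lower in knockout libraries (72.7% called, median log2 fold change -0.15), and of 17 for mitochondrial transcription and replication 3 were higher and 9 lower (70.6% called, median -0.27), beside 46.0% of all genes called, 23.4% higher and 22.6% lower. LRPPRC, which stabilizes mitochondrial mRNAs, had 684, 689 and 671 CPM in knockout libraries, against 858, 829 and 855 CPM in control libraries (log2 fold change -0.31 ± 0.03 (SE), adjusted p = 8.64e-08). TFAM, the packaging and transcription factor of mitochondrial DNA, had 106, 109 and 105 CPM in knockout libraries, against 149, 126 and 136 CPM in control libraries (log2 fold change -0.37 ± 0.05 (SE), adjusted p = 1.38e-05). MTERF4, needed for the mitochondrial ribosome, had 40.3, 40.3 and 40 CPM in knockout libraries, against 87.3, 83.8 and 95.7 CPM in control libraries (log2 fold change -1.15 ± 0.05 (SE), adjusted p = 1.99e-12). FASTKD2, an RNA-binding protein of the mitochondrial matrix, fell too (-0.64), and POLRMT, the mitochondrial RNA polymerase, was higher (0.46). MTERF4 lies within 5 Mb of NDUFA10 and FASTKD2 within 5 Mb of NDUFS1, among the chromosome 2 neighbours that were mostly lower. The neighbourhoods of LRPPRC, TFAM and POLRMT are not given here, and their part in these values was not tested. In add-back against knockout 3 of 22 and 3 of 17 were higher and none lower in these lists, which is 13.6% and 17.6% beside 19.6% of all genes called. LRPPRC had 644, 641 and 687 CPM in add-back libraries and was not called against knockout (-0.05). Vehicle against add-back had 4 higher and 6 lower of 22, and 5 higher and 4 lower of 17. These are 45.5% and 52.9% beside 48.1% of all genes. MTERF4 (-1.31) and POLRMT (-1.04) were among the lower ones, and LRPPRC averaged 657 CPM in add-back and 654 CPM in vehicle libraries. With LY500307 1 of 22 and 1 of 17 were higher and 0 lower, the latter POLRMT (0.54).

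PPARGC1A, the coactivator PGC-1α that drives mitochondrial biogenesis, differed in each untreated comparison at a low level. It had 5.84, 5.71 and 4.29 CPM in knockout libraries, against 3.41, 4.29 and 2.97 CPM in control libraries (log2 fold change 0.57 ± 0.16 (SE), adjusted p = 0.00775), and the groups overlapped. Add-back libraries had 2.01, 2.04 and 2.43 CPM, below every knockout library (log2 fold change -1.28 ± 0.17 (SE), adjusted p = 2.53e-05). Vehicle libraries had 4.77, 4.27 and 4.36 CPM, above every add-back library (log2 fold change 1.05 ± 0.17 (SE), adjusted p = 5.53e-05). ESRRA, a nuclear receptor that works with PGC-1α, had 13.3, 14.9 and 14.1 CPM in LY500307 libraries, against 10.7, 9.93 and 11.7 CPM in vehicle libraries (log2 fold change 0.39 ± 0.08 (SE), adjusted p = 0.00876). ESRRA was lower in vehicle than in add-back libraries (log2 fold change -0.65). Its mean was 16.8 CPM in add-back libraries and 14.1 CPM with LY500307. With the GC and length offsets 262 of the 19516 genes were called in LY500307 against vehicle, and the ESRRA value under them is not given here. Of the 20 biogenesis regulators in all, 3 were higher and 11 lower in knockout libraries (70.0% called, beside 46.0% of all genes) and 4 and 1 in add-back against knockout (25.0% beside 19.6%). They were 9 higher and 4 lower in vehicle against add-back (65.0% beside 48.1%) and 2 and 3 with LY500307 (25.0% beside 7.12%). In knockout against control the 3 regulators with the smallest p were all lower, NFE2L2 (-0.70), MYC (-0.61) and PRKAA1 (-0.44). PPARGC1A was among the 3 that were higher there.

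Other lists of mitochondrial genes, and the cytosolic ribosome beside them, were counted in the same way. Of 78 mitochondrial ribosome genes 12 were higher and 38 lower in knockout libraries (64.1% called, beside 46.0% of all genes; median -0.14), and 20 were higher and 1 lower in add-back against knockout (26.9% beside 19.6%; median 0.11). Of 72 cytosolic ribosome genes 6 were higher and 52 lower in knockout libraries (80.6% called, median -0.22), and 27 were higher and 0 lower in add-back against knockout (37.5%, median 0.10). Of 53 assembly factors 8 were higher and 16 lower in knockout libraries, 45.3% beside 46.0% of all genes, with COA6, which helps insert copper into complex IV, at -0.92. Of 18 electron carrier and mitochondrial mass genes 3 were higher and 10 lower in knockout libraries, 72.2% beside 46.0% of all genes. The lowest of these were the chaperone pair HSPE1 (-1.06) and HSPD1 (-0.90), which lie side by side on chromosome 2 within 5 Mb of NDUFB3, where 43 of 64 neighbours were lower.

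Transcript shares, from the deposited transcript counts, differed between groups for some members. The retained-intron transcript ATP5MC3-205 gave 25.6, 26.5 and 23.4% of ATP5MC3 counts in knockout libraries, against 15.2, 15.2 and 16.5% in control libraries. ATP5IF1-202 gave 70.7, 70.8 and 66.9% of ATP5IF1 in knockout libraries, against 54.9, 51.8 and 58.4% in control libraries. UQCR11-205, annotated as a processed transcript, gave 42.4, 36.8 and 39.1% of UQCR11 in vehicle libraries, against 15, 16.8 and 17.7% in add-back libraries. None of these 3 pairs of groups overlapped. They were picked from 178 transcripts after their values were seen, with no test.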

How the data were processed

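The values are expected counts for genes and transcripts that the authors deposited without normalization; the submitters' processing notes name GSNAP, RSEM, FastQC and Trim Galore, and the build GRCh38. Versions, annotation release and the use of strand are not given in the sources used here. Expected counts were rounded to whole numbers. Symbols, positions, length and GC content came from the reference tables and GENCODE 29.

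Genes were filtered with filterByExpr and tested with edgeR 4.0.16 (R 4.3.3; TMM, 1 group-means model of 15 libraries, two-sided quasi-likelihood F test). Calls needed an adjusted p (Benjamini-Hochberg, 19516 genes) below 0.05. Replicates of a group differed by more than counting noise (chi-square per degree of freedom 2.15 to 5.44). The labels do not state separate cultures, so p-values measure the spread between these libraries, which may be technical. On simulated data for knockout against control, the edgeR step recovered 36 of 50 genes changed 1.25-fold and 49 of 50 changed 1.5-fold, with 6 false calls. That simulation held no GC trend, unlike these libraries, so it says nothing about calls that follow GC content. It also gave every gene the same spread, changed only few genes and left those at low levels unchanged. The recovery thus does not carry over to members that vary more between libraries, such as the mitochondrial mRNAs, or that have low counts. DESeq2 1.42.0, other scalings, filters and leaving out libraries were alternatives. Lists are described by counts and medians, without a test.

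Members and lists were chosen with earlier results of these data known. Named were all mitochondrial members, up to 6 called nuclear members per direction and comparison without overlap, a list of core and isoform genes, members under the filter and up to 3 genes per list by p, for which most comparisons are given by their counts alone.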

Additional observations from a re-analysis of the deposited data

How the results depend on the processing

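Counts of called members moved by over 1.5 times in these cases. Knockout against control had 7 mitochondrial calls with GC and length offsets. Add-back against knockout had 9 mitochondrial calls without the filter on low counts, 1 with the 6 libraries alone and 1 with DESeq2, and 11 nuclear calls with upper-quartile factors and 11 with the offsets. LY500307 against vehicle had 2 mitochondrial calls without the filter, and 0 nuclear calls with the offsets. The cause was not tested. Leaving out 1 library gave 8 to 13, 1 to 5, 0, 9 to 12 and 8 to 9 mitochondrial calls and 35 to 40, 11 to 18, 1 to 7, 38 to 42 and 42 to 50 nuclear calls, in the order knockout against control, then add-back against knockout, then LY500307 against vehicle, then add-back against control, then vehicle against add-back; the medians ran from -0.45 to -0.22, -0.09 to 0.14, -0.14 to -0.02, -0.41 to -0.32 and 0.24 to 0.34 for mitochondrial and from -0.05 to -0.01, 0.067 to 0.093, -0.02 to 0.00, 0.020 to 0.079 and 0.051 to 0.092 for nuclear members.

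Medians moved by more than 1 SD of the library medians with the offsets, to 0.012 for nuclear members in knockout against control, -0.25 and 0.069 for mitochondrial and nuclear members in add-back against control, and 0.19 and 0.026 in vehicle against add-back; upper-quartile factors gave 0.051 for the nuclear members there. The log2 ratio of the genomes in add-back against control was -0.63 from medians and -0.38 from sums. The offsets turned the sign of 8 named values that were called with or without them: in knockout against control ATP5F1D (-0.23), NDUFV1 (-0.063), COX7A2 (0.19) and MT-ND3 (0.064), in add-back against control ATP5F1D (-0.27), NDUFV1 (-0.010) and UQCRC1 (-0.14), and in vehicle against add-back CYC1 (0.20). Sign changes of named values called in neither case were not counted.

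Libraries with the same replicate number did not visibly deviate together (30 pairs, r from -0.0952 to 0.0603). These values cannot show whether such libraries were grown or prepared together. A replicate block gave 13, 4, 0, 12 and 9 mitochondrial and 40, 13, 3, 42 and 53 nuclear calls, in the order above. The 3 nuclear calls in LY500307 against vehicle stand against 6 without the block, and the 13 in add-back against knockout against 17.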
